A study of Saccharomyces cerevisiae BY4741 with 66 samples.

Results

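The libraries described here compared ribosomes that came down with GFP-tagged FAS1 with all ribosomes of cells titled as the same yeast strain. The mating-type genes of total replicate 2 did not match those of the other libraries, as given below. They were 4 of the 66 libraries in the series, chosen by their titles: 2 of the immunopurified (IP) translatome of FAS1-GFP and 2 of its total translatome. Both fractions came from Saccharomyces cerevisiae, strain BY4741 per the labels, that carried GFP on FAS1 and grew in the rich medium YPD at 30 °C and 150 rpm. The labels name no drug or deletion in this strain and do not say which end of FAS1 carried the tag. They also do not say whether replicates were separate cultures, so p-values measure the spread between libraries only. That spread was pooled over 28 libraries of 7 strains fitted together, not taken from the FAS1-GFP libraries alone. After filtration, flash freezing and milling of the cells, the IP fraction was taken with a GFP antibody on sepharose beads, and the total fraction was pelleted through a sucrose cushion. No untagged strain was analysed here. For comparison, IP and total libraries of 6 other strains in YPD, also with 2 replicates of each, entered the same fit: FAS2-GFP, GUS1-GFP, MES1-GFP, ARC1-GFP, PFK1-GFP and PFK2-GFP.

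FAS1 and FAS2 encode the beta and alpha subunits of cytosolic fatty acid synthase, a barrel-shaped complex that builds palmitate and stearate from acetyl-CoA and malonyl-CoA. The catalytic domains are divided between both subunits, and the malonyl/palmitoyl transferase domain is itself completed by residues of both chains. In selective ribosome profiling, a tagged subunit that holds a nascent partner brings down the ribosome that is making it, and the footprints of that ribosome then add to the partner's reading frame in the IP.

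Values per gene were in RPM, reads scaled to a common library size. The tables listed 6605 features, 6577 of them nuclear, and 5077 passed a mean of 5 RPM over the 28 libraries fitted. Low values implied 3.58 and 1.57 M reads in IP 1 and IP 2, and 11.0 and 6.06 M in total 1 and total 2. Listed features held 37.8% and 57.7% of those reads in the IPs, against 81.3% and 94.9% in the totals. Footprints over mitochondrial genes, which were left out of the tests, were above 0 for 23 of 28 features in IP 1 and 21 in total 1, and were listed at 0 for all 28 in IP 2 and total 2. The 4 libraries did not share a mating-type pattern: total 2 carried MATa-specific mRNAs, whereas IP 1, IP 2 and total 1 carried mainly MATα-specific ones. BY4741 is a MATa strain. For the gene groups and the genes chosen by fold, the IP minus total difference is therefore given by library or without total 2 where leaving it out moved the value by over 1.5 times.

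FAS2 (YPL231W; chromosome XVI, 108652 to 114315, plus strand, a single reading frame of 5664 nt in the deposited tables and at the same place in assembly R64) was the feature with the most footprints in both IPs. Its level was 169100 and 312800 RPM over nuclear features in IP 1 and IP 2, against 2933 and 4367 RPM in total 1 and total 2. Both IPs thus stood far above both totals, and FAS2 ranked 1st in each IP, against 38th and 23rd in the totals. FAS2 alone took 16.9% and 31.3% of all footprints over nuclear features in the IPs, against 0.293% and 0.437% in the totals. As a share of the whole deposited library, it was 6.36% and 18.0% in the IPs and 0.238% and 0.415% in the totals.

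After scaling between libraries with a trimmed mean of log ratios, FAS2 had 187300 and 346100 scaled RPM in the IPs, against 3229 and 4045 in the totals. The difference on the log2(scaled RPM + 1) scale was 6.14 ± 0.30 (SE, n = 2 each), with an adjusted p of 7.9e-11 in limma-trend. This SE and p-value use the spread pooled over the 28 libraries fitted. With the 4 FAS1-GFP libraries alone the SE was 0.51 and the adjusted p 0.0057 in limma-trend. The difference was 5.86 between IP 1 and total 1, which shared a mating-type pattern, and 6.42 between IP 2 and total 2, which did not. Features were called where the adjusted p was under 0.05 and the log2 difference reached 1 in either direction, and FAS2 was the only one of 5077 features called (0.0197%). The number called was 53 without total 1, 2 without IP 1, 16 from IP 2 against total 2 alone, 26 with the 4 FAS1-GFP libraries alone, and 2380, of which 2369 were lower, with the RPM as deposited. FAS2 was called in each of these fits.

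FAS1 (YKL182W; chromosome XI, 100671 to 106826, plus strand, a reading frame of 6156 nt), the mRNA of the tagged subunit itself, differed far less. Its level was 6670 and 7132 RPM over nuclear features in the IPs, against 3507 and 5137 RPM in the totals. Both IPs were above both totals. On the scaled values the difference was 0.83 ± 0.21 log2 (SE, n = 2 each), with an adjusted p of 0.153 in limma-trend, and FAS1 was not called. It ranked 554th among the 5077 differences. Its direction depended on the scaling: with the RPM as deposited, which moved the median of all features to -1.08, FAS1 was at -0.21. With equal totals over all nuclear features the median of all features was -0.21 and FAS1 was at 0.70. With equal totals that left out both synthase genes the median was 0.18 and FAS1 was at 1.11.

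The ratio of FAS2 to FAS1 within a library needs no scaling between libraries. Per kilobase of reading frame, FAS2 had 27.6 and 47.7 times the footprints of FAS1 in IP 1 and IP 2, against 0.909 and 0.924 times in total 1 and total 2. In the totals of FAS1-GFP the 2 subunit mRNAs were thus covered at nearly the same density. In 12 other strains with full-length synthase subunits, some of them grown in other media, the same ratio per kilobase was 0.936 to 2.24 in 19 IPs (median 1.10) and 0.695 to 1.19 in 19 totals (median 0.905). The highest of those IPs, at 2.24 and 1.96, were the pair from FAS2-GFP. On the log2 scale the ratio was 5.31 higher in IP than in total in FAS1-GFP, 1.40 higher in FAS2-GFP, and between -0.23 and 0.39 in strains whose tag was on another complex.

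**Figure D1:**
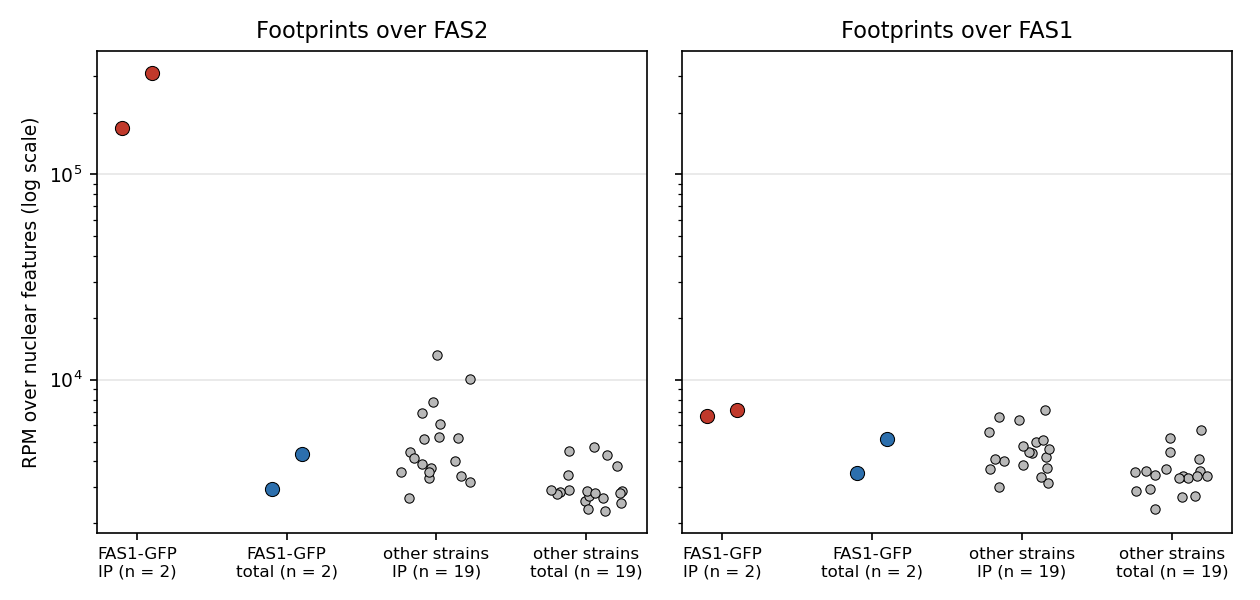
Footprints over FAS2 (left) and FAS1 (right) in each library, as RPM over nuclear features on a log axis; red points are the 2 FAS1-GFP IPs, blue points the 2 FAS1-GFP totals, and grey points 19 IPs and 19 totals of 12 other strains. FAS2 in the FAS1-GFP IPs, at 169100 and 312800 RPM, lies above every other library, whose highest value is 13140 RPM in an IP of FAS2-GFP, whereas FAS1 stays between 2336 and 7153 RPM in all libraries plotted.

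The excess over other complexes was the IP minus total difference of FAS1-GFP less the mean of the same difference in GUS1-GFP, MES1-GFP and ARC1-GFP, whose tagged proteins form the aminoacyl-tRNA synthetase complex, and in PFK1-GFP and PFK2-GFP, the subunits of phosphofructokinase. FAS2 was at 6.14 log2 in FAS1-GFP and between -0.13 and 0.52 in those 5 strains. Its excess of 5.96 ± 0.32 (SE) had an adjusted p of 7.0e-10 in limma-trend. FAS1 was at 0.83 in FAS1-GFP and between -0.27 and 0.36 in the 5 strains, an excess of 0.81 ± 0.23 (SE) that did not pass (adjusted p of 1.0 in limma-trend). FAS2 and 1 other feature of 5077 were called for this contrast (0.0394%), and the other one was lower: GUS1, glutamyl-tRNA synthetase, with an excess of -1.84 ± 0.28 (SE) and an adjusted p of 0.0069 in limma-trend. GUS1 had 1110 and 1058 scaled RPM in the FAS1-GFP IPs, against 1571 and 1482 in the totals, and its difference in FAS1-GFP itself was -0.49. Its mean in the 5 strains was 1.34, with a highest value of 4.46. In GUS1-GFP, MES1-GFP and ARC1-GFP the tag sits on GUS1 itself or on a protein of the same complex. With PFK1-GFP and PFK2-GFP alone as the comparison, FAS2 remained called (5.62) and GUS1 was at -0.14, not called. Without IP 1, IP 2 or total 2 the excess of GUS1 was -1.87, -1.80 and -1.88, with adjusted p-values of 0.0859, 0.133 and 0.0742 in limma-trend, and was not called. Without total 1 the contrast called 33 features.

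The genes next to FAS2 were not higher in the IP. VMA11, NSL1 and SSO1 upstream and YPL229W and CET1 downstream had differences of -0.66, -0.74, -0.47, -1.12 and -0.61, and none was called. Each had both IPs below both totals, against 34.1% of all features. That share was 67.6% in frames from 300 nt to under 600 nt and 54.9% from 600 nt to under 1000 nt. Those classes hold all of these neighbours but CET1. USV1, directly downstream, was too low to be tested, with 4.11 and 2.44 scaled RPM in the IPs and 2.21 and 10.3 in the totals. Around FAS1, LOT5 and PRS1, the tested features on either side, were at 0.13 and 0.28 and overlapped between IP and total.

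**Figure D2:**
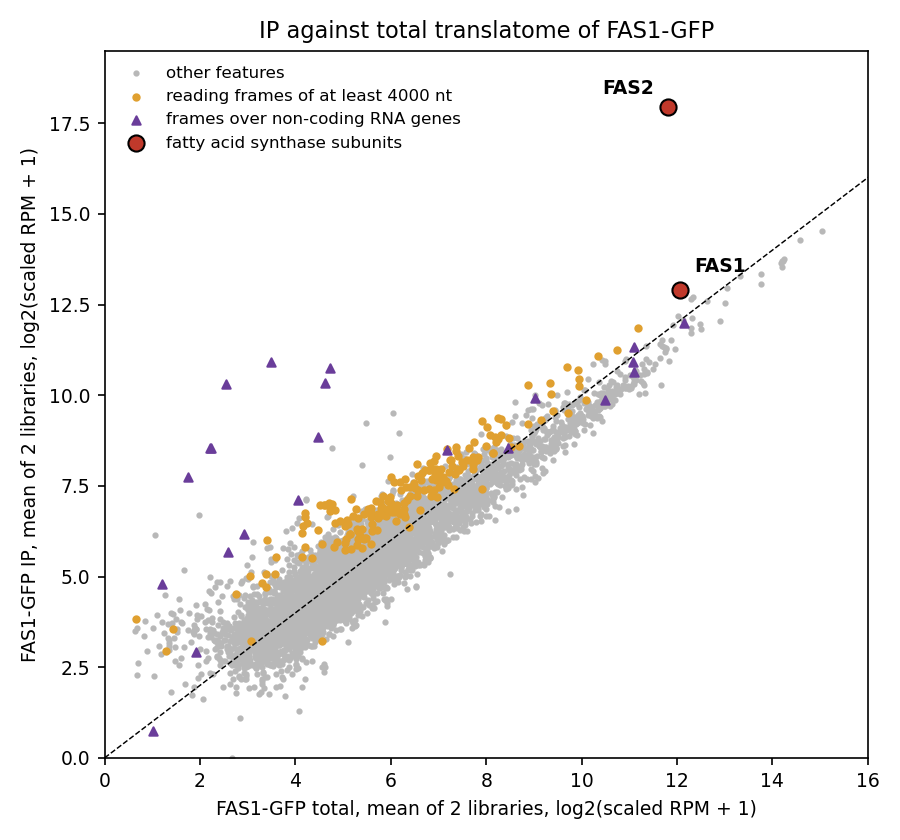
Mean of the 2 IPs (vertical axis) against the mean of the 2 totals (horizontal axis) of FAS1-GFP for 5077 features, both as log2(scaled RPM + 1); the dashed line marks equal values, red points are FAS2 and FAS1, orange points reading frames of at least 4000 nt, and purple triangles frames over non-coding RNA genes. FAS2 stands 6.14 above its total at the top of the plot, FAS1 0.83 above, and most other features follow the line.

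Beyond FAS2, both IPs lay above both totals for 1427 of 5077 features (28.1%) and below both for 1732 (34.1%), and 975 had an unadjusted p under 0.05, but none other passed the adjusted threshold. The differences were shared with other strains: across the 5077 features, the difference in FAS1-GFP and the mean difference in the 5 strains of other complexes correlated at r = 0.796, a description over features that were measured and scaled in the same way.

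Among features that averaged 20 RPM or more and had no overlap between IPs and totals, 9 of the 10 with the highest IP minus total difference were not called. YJL047C-A was at 7.76, YOL013W-A at 7.44, YOR072W-B at 6.35 and YNL042W-B at 6.32, which put all 4 above FAS2. These small listed frames overlap non-coding RNA genes: YJL047C-A the snoRNA gene SNR60, and the other three tRNA genes. YOL013W-A had 1584 and 2355 scaled RPM in the IPs, against 22.3 and 4.35 in the totals, so the groups did not overlap, but the spread was wide (SE 1.68, adjusted p of 0.126 in limma-trend). YHR145C, over the tRNA gene SUF8, was at 6.03 with 9444 and 317 scaled RPM in the IPs, against 122 and 4.74 in the totals, and at 3.82 without total 2. YDR445C (6.01), YDR278C (5.71), YCR024C-B (5.08) and MTC7 (4.71) completed the set. In the strains of other complexes these 9 features averaged between 2.87 and 6.47, so the same frames were also higher in IPs with other tags. Of 37 nuclear features over genes for tRNA, snoRNA, snRNA or rRNA, 22 were tested, 11 had both IPs above both totals, against 28.1% of all features, and their median was 3.09, against 2.10 in the strains of other complexes and -0.08 for all features in FAS1-GFP. Without total 2 the median was 1.57. The authors' counting could assign reads of the RNA gene to the frame that overlaps it, which leaves these values uncertain.

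Under the same limits on level and overlap, none of the 10 features with the lowest difference was called. COX7 and COX9, small subunits of cytochrome c oxidase, were at -2.14 and -1.68, and CYC1, cytochrome c, was at -1.81. PHM8, a phosphatase, was at -1.91, HOR7, a stress-induced gene, at -1.76, and PBI2, an inhibitor of vacuolar proteinase B, at -1.73. HXK1, a hexokinase, was at -1.64, STF2 at -1.62, OM14, a mitochondrial outer membrane protein, at -1.61, and YCL042W, a frame that overlaps the glucokinase gene GLK1, at -1.62. HOR7 had 118 and 114 scaled RPM in the IPs, against 167 and 932 in the totals, and COX7 had 15.6 and 9.78 against 39.9 and 83.8. In all 10 of these features total 2 was the highest of the 4 libraries. Without total 2, HOR7 was at -0.52, STF2 at -0.56, YCL042W at -0.61, PHM8 at -0.98, PBI2 at -1.13, HXK1 at -1.21, OM14 at -1.22, CYC1 at -1.35, COX9 at -1.58 and COX7 at -1.61. The part of the mating-type pattern of total 2 in these values was not tested.

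By excess over other complexes, again among features that averaged 20 RPM or more without overlap, the highest after FAS2 were YOL013W-A (4.20), YOR072W-B (3.47), YNL042W-B (3.28) and YHR145C (3.03), the same frames over tRNA genes. None of these was called. The lowest under the same limits were PGM2, phosphoglucomutase (-2.19), GUS1, HXK1 (-1.83), ARC1, the cofactor that binds GUS1 and MES1 (-1.75), and HOR7 (-1.62). PGM2 had 47.7 and 41.6 scaled RPM in the IPs, against 51.6 and 240.3 in the totals, and total 2 was its highest library. Its IP minus total difference was -1.31, and -0.21 without total 2. A low excess can also come from high values in the comparison strains. Over the 5 strains PGM2 ranged from -1.2 to 2.71, HXK1 from -0.51 to 1.42 and HOR7 from -1.21 to 0.95. ARC1 ranged from -0.83 to 4.58, and its excess was 0.056 with PFK1-GFP and PFK2-GFP alone as the comparison.

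Longer reading frames had higher IP minus total differences. The median difference was -0.79 for 124 frames under 300 nt, -0.64 for 580 from 300 nt to under 600 nt, -0.42 for 1114 from 600 nt to under 1000 nt, -0.04 for 1989 from 1000 nt to under 2000 nt, 0.39 for 1054 from 2000 nt to under 4000 nt and 0.92 for 194 of 4000 nt or more. FAS2 and FAS1 both belong to the longest class, in which 179 of the 194 had both IPs above both totals and 1 had both below, against 28.1% and 34.1% of all features. The order was the same for IP 1 against total 1 (from -0.50 to 0.73) and for IP 2 against total 2 (from -1.14 to 1.12). It was also the same in FAS2-GFP and in each strain of the other complexes, where the longest class had medians of 0.37 to 1.06. With the RPM as deposited the median of the longest frames was -0.12, above the -1.08 of all features. FAS1, at 0.83, stood near the median of its length class, and FAS2, at 6.14, was the highest of the class. In the strains of other complexes FAS1 averaged 0.03, below the 0.675 of its class. The excess of FAS1, 0.81 and not called, compares with a class median of 0.26.

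**Figure D3:**
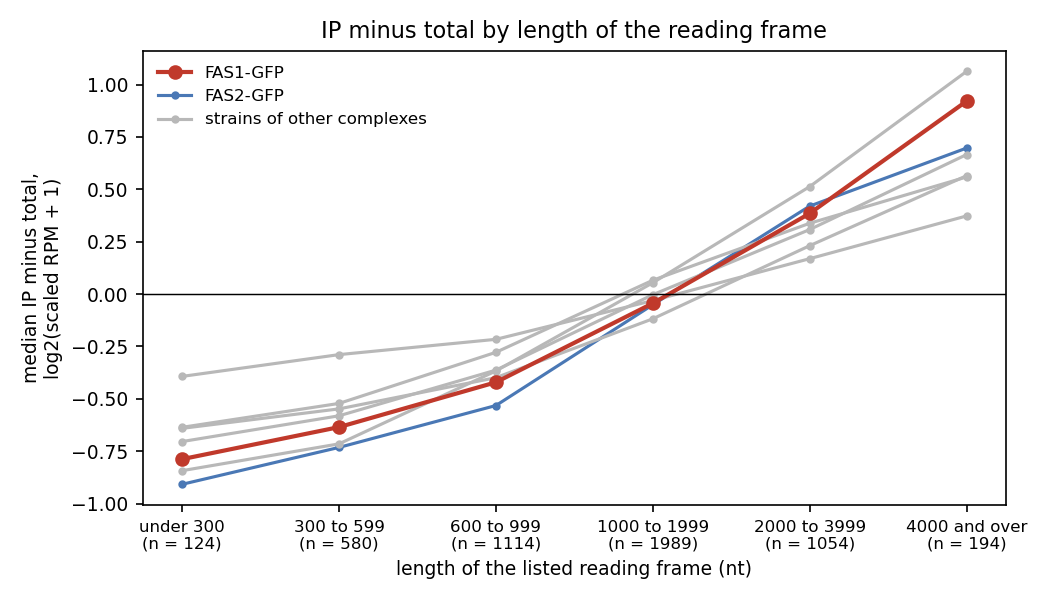
Median IP minus total difference, on the log2(scaled RPM + 1) scale, in 6 classes of reading frame length, with the number of features in each class; the red line is FAS1-GFP, the blue line FAS2-GFP and grey lines the 5 strains of other complexes. In FAS1-GFP the median goes up with length to 0.92 in frames of 4000 nt or more, and all 7 strains show the same order.

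Other long mRNAs in the IP had modest values. FLO11, a cell surface flocculin with repeats, was at 3.16, with 14.0 and 12.2 scaled RPM in the IPs, against 1.47 and 0 in the totals. FIG2, a mating adhesin, was at 2.62 (1.56 without total 2), with 75.7 and 53.8 against 21.0 and 4.03. YIL177C, a subtelomeric helicase-like frame with near-identical copies, was at 2.53. None was called, and the strains of other complexes averaged 1.73, 1.36 and 1.79 for FLO11, FIG2 and YIL177C.

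The remaining enzymes of fatty acid metabolism did not share the behaviour of FAS2. Of 9 tested genes of cytosolic fatty acid supply, elongation and desaturation, none was called, 2 had both IPs above both totals and 7 had both below, against 28.1% and 34.1% of all features, with a median of -0.51, against -0.08 over all 5077 features. ACC1, acetyl-CoA carboxylase, which makes the malonyl-CoA that the synthase uses, had 3026 and 4484 scaled RPM in the IPs, against 2121 and 2574 in the totals. Its groups did not overlap. The difference of 0.66 was not called, was -0.39 with the RPM as deposited, and compares with 0.48 on average in the strains of other complexes. BPL1, the ligase that attaches biotin to ACC1, was the other higher one (0.49). IFA38, TSC13 and ELO2, which act in the elongation of very long chains, were at -0.79, -0.71 and -0.72, and OLE1, the delta-9 desaturase, was at -0.38.

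Genes that activate or carry acyl chains were mixed, with a median of -0.16 over 7 of 8 tested (0.11 with equal totals that left out the synthase genes, 0.05 without total 2), 3 with both IPs above and 3 with both below, against 28.1% and 34.1% of all features. The acyl-CoA synthetase genes FAA2 and FAA3 were at 0.83 and 0.55, FAA1 at -0.44 (-0.14 without total 2), and ACB1, the acyl-CoA binding protein, at -0.95. None was called. In mitochondrial fatty acid synthesis, 7 of 8 genes were tested, with a median of 0.07, which was -0.06 with equal totals over all nuclear features, -1.01 with the RPM as deposited and -0.03 without total 2. HFA1, the mitochondrial acetyl-CoA carboxylase, was at 1.63 with 48.6 and 63.6 scaled RPM in the IPs, against 27.9 and 10.6 in the totals, and at 0.97 without total 2. ACC1 and HFA1 are both long frames, and HFA1 averaged 1.41 in the other strains. ACP1, the mitochondrial acyl carrier protein, and ETR1, an enoyl reductase, were at -1.06 and -0.96, and OAR1, a ketoacyl reductase, was at 0.47.

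In phospholipid synthesis, 11 genes had a median of -0.29, which was 0.22 without total 2 and 0.11 for IP 1 against total 1. OPI3, a phospholipid methyltransferase, had 22.7 and 29.3 scaled RPM in the IPs, against 28.1 and 289.9 in the totals, and INO1, inositol phosphate synthase, had 2.47 and 8.56 against 1.72 and 48.5. Their groups overlapped. The difference of OPI3 was -1.78, and -0.12 without total 2. For INO1 it was -1.01, and 1.08 without total 2. CHO1, phosphatidylserine synthase, was at -1.28, and at -0.50 without total 2. PSD2, a phosphatidylserine decarboxylase, was at 1.20 in both replicate pairs. Only 4 of 10 genes of peroxisomal beta-oxidation passed the filter on low values and their median was 0.29 (-0.93 with the RPM as deposited, 0.62 without total 2). PXA1, a subunit of the fatty acid transporter of peroxisomes, was at 1.39, FOX2 at 0.51, ANT1 at 0.08 (-0.08 without total 2) and ECI1 at -0.37, each at 42.8 scaled RPM or less in every library.

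None of the chaperones that meet nascent chains on the ribosome was called. Of 7 tested genes, 4 had both IPs below both totals and none had both above, against 34.1% and 28.1% of all features, and the median was -0.52, against -0.75 in the strains of other complexes. EGD1 and EGD2, the nascent polypeptide-associated complex, were at -0.84 and -0.77, BTT1, an alternative beta subunit of that complex, at -0.55, and ZUO1, the HSP40 of the ribosome-associated complex, at -0.52. Of 14 cytosolic heat shock proteins and their partners, 9 had both IPs below both totals and 1 both above, against 34.1% and 28.1% of all features, with a median of -0.44. SSA3, an inducible HSP70, was at 1.67, HSP26 at -1.47, SSE2 at -0.99 (-0.64 without total 2) and the disaggregase HSP104 at -0.76. HSP26 had 37.4 and 7.06 scaled RPM in the IPs, against 45.5 and 49.8 in the totals. Its difference was -0.275 for IP 1 against total 1 and -2.66 for IP 2 against total 2. The chaperonin CCT and prefoldin had a median of -0.20 over 14 genes (0.07 with equal totals that left out the synthase genes), and the prefoldin genes GIM5, PFD1, YKE2 and GIM4 were at -0.93, -0.83, -0.79 and -0.72, the last at -0.12 without total 2. None of these genes was called.

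Subunits tagged in the other strains of the series had a median of -0.29 over 15 genes, 2 with both IPs above and 9 with both below, against 28.1% and 34.1% of all features. PFK1 and PFK2, large enzyme subunits that are abundant like the synthase, were at 0.07 and 0.02. MES1, methionyl-tRNA synthetase, was at 0.12, ARC1 at -0.64, TRP2, anthranilate synthase, at -0.79 (-0.36 without total 2), CPA1, the small subunit of carbamoyl phosphate synthetase, at 0.55, and NAT3, a catalytic N-acetyltransferase subunit, at -0.64. None of the 15 was called in the FAS1-GFP IP.

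Of 137 cytosolic ribosomal protein genes, 131 had both IPs below both totals, against 34.1% of all features, with a median of -0.65, against -0.76 in the strains of other complexes. RPL39, RPL36A, RPL36B and RPS27A were the furthest, at -1.27, -1.19, -1.13 and -1.06, and none of the 137 was called. Many of these genes have near-identical copies, so their values are uncertain. The share with both IPs below both totals also went with length. Among all tested frames it was 75.8% under 300 nt, 67.6% from 300 nt to under 600 nt and 54.9% from 600 nt to under 1000 nt. Length was not matched for these genes or for the mitochondrial ones that follow. Of 67 nuclear genes for mitochondrial ribosomal proteins, 57 had both IPs below both totals, against 34.1% of all features, with a median of -0.63, against -0.40 in the other strains, and RSM27, MRP10, MRPL25 and MRPL28 were at -1.43, -1.42, -1.40 and -1.34.

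Glycolytic and fermentative genes, which make up much of the yeast translatome, had a median of -0.52 over 16 genes (-0.83 without total 2), against -0.57 in the strains of other complexes. PGK1, phosphoglycerate kinase, had 11600 and 6326 scaled RPM in the IPs, against 17880 and 10870 in the totals, so IP 1 overlapped with total 2. Its difference was -0.70, and -1.06 without total 2. GPM1 was at -0.86 and GLK1 at -1.34 (-0.77 without total 2). Genes for translocation into and folding in the endoplasmic reticulum had a median of -0.19 over 15 (0.07 with equal totals that left out the synthase genes, -0.31 without total 2), with SBH1 at -0.81, SSS1 at -0.78, WBP1 at -0.47 and PDI1 at -0.46. Cell wall and secreted proteins had a median of -0.58 over 19, with CWP1 at -1.53, CWP2 at -1.27, PIR3 at -0.88 and YGP1 at -2.15. YGP1 had 21.2 and 50.5 scaled RPM in the IPs, against 48.6 and 455 in the totals, so its groups overlapped, and it was at -0.55 without total 2.

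Values of the respiratory chain and of stress genes differed between the replicate pairs. Of 33 nuclear genes for the respiratory chain and ATP synthase, 29 had both IPs below both totals, against 34.1% of all features, with a median of -1.14 (-0.67 without total 2), but the median was -0.44 for IP 1 against total 1 and -1.55 for IP 2 against total 2. Beside COX7 and COX9, ATP20 and COX4 were at -1.53 and -1.48, and COX4 at -0.91 without total 2. Among all tested frames under 300 nt, such as COX7 and COX9, 75.8% had both IPs below both totals. Length was not matched for this group either. Of 14 stress, trehalose and glycogen genes, the median was -0.99 (-0.21 without total 2), with -0.14 in the first pair and -1.80 in the second, against 0.70 in the strains of other complexes. HSP12, a membrane-protecting stress protein, had 5.76 and 53.8 scaled RPM in the IPs, against 6.6 and 484 in the totals. Its groups overlapped, and it was at -1.66, or at 1.34 without total 2. SOL4, DDR2 and GPH1 were at -2.79, -2.03 and -1.38, also with overlapping groups, and without total 2 DDR2 was at -0.53 and GPH1 at -0.31. None of these genes was called. The strains of other complexes differed among themselves. Over those strains HSP12 ranged from -0.79 to 3.95 and SOL4 from -0.15 to 2.20. DDR2 ranged from -1.3 to 2.76 and GPH1 from 0.11 to 1.73. Each of these genes was highest in MES1-GFP, followed by ARC1-GFP.

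**Figure D4:**
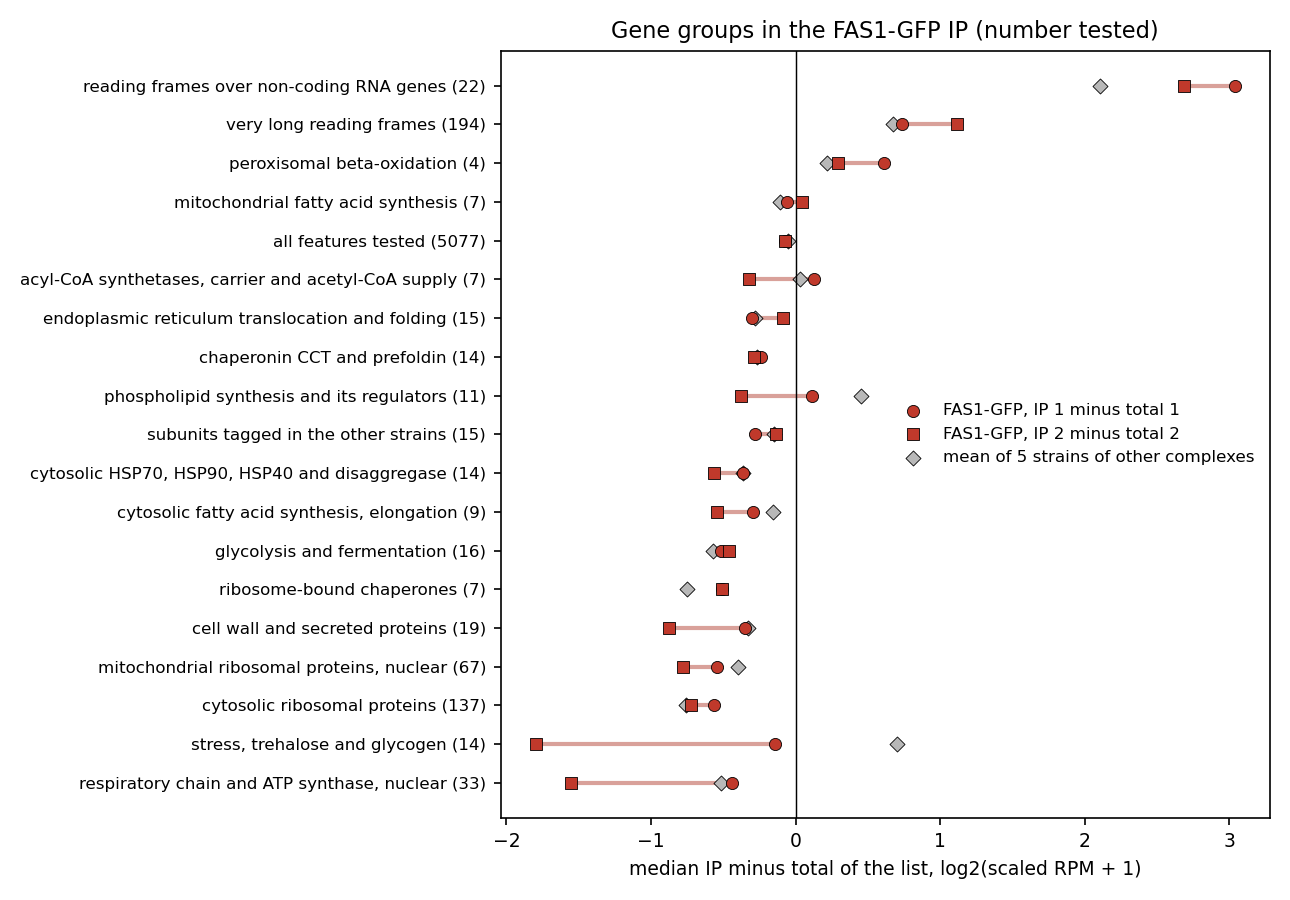
Median IP minus total difference of gene groups on the log2(scaled RPM + 1) scale, with the number of genes tested; red circles are IP 1 against total 1, red squares IP 2 against total 2, and grey diamonds the mean of the 5 strains of other complexes. Of the groups plotted, the pairs lie furthest apart for stress genes (-0.14 and -1.80) and the respiratory chain (-0.44 and -1.55); the synthase pair and the mating-type groups, of which the MATa genes had medians of 0.25 and -2.97 and the MATα genes of -0.40 and 6.31, are not plotted.

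The mating-type genes separated total 2 from the rest. The 6 MATa-specific genes summed to 22.2 and 111 scaled RPM in IP 1 and IP 2, against 5.53 and 874 in total 1 and total 2, and the 4 MATα-specific genes to 1642 and 1003 in the IPs, against 2166 and 6.92 in the totals. Total 2 was thus the only one of the 4 with high MATa and near-absent MATα genes, and IP 2 held both kinds. In the 20 libraries of the strains of other complexes, MATa genes summed to 576 to 1412 and MATα genes to 1.22 to 173, whereas the 4 FAS2-GFP libraries had 3.77 to 145 and 595 to 2304. The IPs of FAS2-GFP also held both kinds. Its MATa genes summed to 29.3 and 144.5 in IP 1 and IP 2, against 5.8 and 3.77 in its totals. Its MATα genes summed to 1349 and 595 in the IPs, against 2304 and 1345 in the totals. Haploid-specific genes, such as GPA1 and STE4 of the pheromone G protein, FUS3, STE18, RME1 and HO, were also summed in FAS1-GFP. They came to 466 and 464 in the FAS1-GFP IPs, against 505 and 559 in the totals. In such bulk samples, fewer cells of a mating type and fewer footprints per cell cannot be told apart by the mating-type genes.

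Single genes showed the split in full. STE2, the receptor for alpha factor on MATa cells, had 1.65 and 26.9 scaled RPM in the IPs, against 0.49 and 206 in the totals, and STE3, the receptor of MATα cells, had 137 and 139 against 178 and 0.97. MF(ALPHA)1, the main alpha factor gene, had 987 and 542 in the IPs, against 1329 and 2.25 in the totals. The a-factor genes MFA1 and MFA2 were at 0 in IP 1, at 9.78 and 24.0 in IP 2, at 0.25 and 0.12 in total 1, and at 151 and 205 in total 2. AGA2, an a-agglutinin subunit, was listed above 0 in total 2 only, at 39.8. BAR1, the protease that degrades alpha factor, had 1.65 and 19.6 against 0.86 and 124, STE6, the a-factor exporter, 18.9 and 30.6 against 3.81 and 149, SAG1, alpha-agglutinin, 350 and 205 against 400 and 3.38, and MF(ALPHA)2, the second alpha factor gene, 169 and 116 against 259 and 0.32.

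A pair of auxotrophy genes followed the same split. BY4741 lacks a working MET17, which it carries as a deletion, and the MATα strain derived beside it, BY4742, lacks LYS2 instead. LYS2, an aminoadipate reductase of lysine synthesis, had 0.82 and 47.2 scaled RPM in the IPs, against 0.12 and 499 in the totals, and MET17, homocysteine synthase, had 878 and 405 against 1005 and 0.97. The pattern of total 2 was that of BY4741 for both genes, that of IP 1 and total 1 the reverse, and IP 2 held footprints of both. In FAS2-GFP, LYS2 was also higher in IP than in total, by 3.08 log2.

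**Figure D5:**
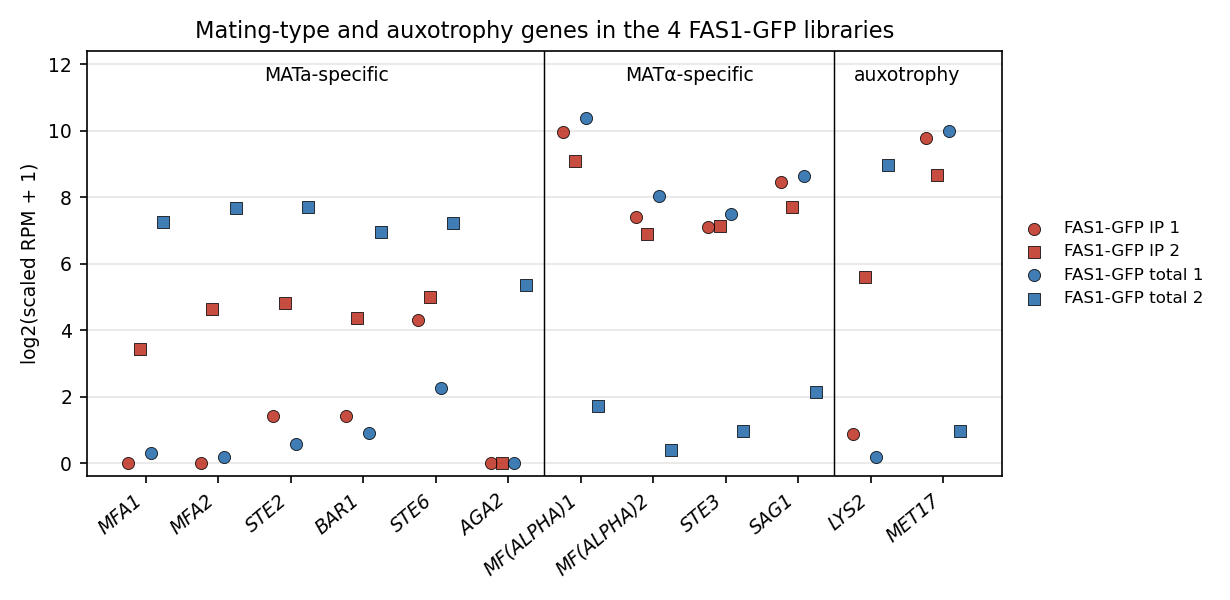
Scaled RPM, as log2(value + 1), of 6 MATa-specific genes, 4 MATα-specific genes and the auxotrophy genes LYS2 and MET17 in IP 1 (red circle), IP 2 (red square), total 1 (blue circle) and total 2 (blue square) of FAS1-GFP. Total 2 is the highest of the 4 for all 6 MATa genes and for LYS2 and the lowest for all 4 MATα genes and MET17, and IP 2 holds both kinds.

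Of 3706 features that averaged 20 scaled RPM or more in the totals, 44 (1.19%) were higher in total 2 than in total 1 by at least 2 log2 and 20 (0.54%) were lower, with no test since these are single libraries. The highest differences were those of LYS2 (8.80), MFA2 (7.52), STE2 (7.12), MFA1 (6.93) and BAR1 (6.07), and the lowest those of MET17 (-9.0), MF(ALPHA)1 (-8.68), MF(ALPHA)2 (-7.62), SAG1 (-6.52) and STE3 (-6.51). The 44 held 5 MATa genes and 6 of the 14 stress, trehalose and glycogen genes, and the 20 held the 4 MATα genes. The IPs were closer to each other: of 3699 features, 5 (0.135%) were higher in IP 2 than in IP 1 by that margin and 9 (0.243%) were lower. Named after their values were seen, the 5 were LYS2 (4.72), HSP12 (3.02), FIT2, a cell wall mannoprotein for iron uptake (2.72), ZRT1, the zinc transporter (2.23), and EMP47, a cargo receptor of the secretory pathway (2.19). Of the 9 lower ones, 7 were features over non-coding RNA genes.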

How the data were processed

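Ribosome footprints of FAS1-GFP IP and total libraries were analysed as the authors deposited them, in RPM per gene. The deposited tables have no header; the unit was taken from their values, since low values are multiples of 1 step per library. The submitters' processing notes name cutadapt 1.8.3, an adapter trimmer. Not given in the sources used here: aligner, counting rule, strand setting and build. Between 27.6% and 73.7% of a FAS1-GFP library's values were whole reads within 0.01 read, so reads were not recovered, no count test was used and no counting interval is given.

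Of 6605 identifiers, 5919 matched RefSeq R64, 5887 at the same coordinates. The 28 mitochondrial features were left out. RPM over nuclear features was scaled by TMM without weights, trimming 0.3 of the ratios and 0.05 of the mean levels, and set to log2(value + 1), which understates differences of low genes. Features averaging 5 RPM or more over 28 libraries of 7 strains entered limma 3.58.1 (limma-trend, R 4.3.3, 14 residual degrees of freedom, Benjamini-Hochberg) with a mean per strain and fraction. On simulated data for FAS1-GFP IP minus total (5077 genes, 200 changed), 67% of genes changed by 1.5 log2 and 93% of those changed by 3 log2 were recovered, with 6 false calls. The simulation drew independent normal noise, with the same spread of a gene in all 28 libraries. It held no library of another mating-type pattern and no trend with length. These shares therefore do not give the recovery in the real libraries.

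Samples were grouped by title. FAS1 and FAS2 were always named; further genes were the 10 highest and 10 lowest differences and the 5 highest and 5 lowest excesses at a mean of 20 RPM or more without overlap of IPs and totals, the 5 highest and lowest differences between the totals, mating-type genes, any called gene, and up to 4 genes with the largest difference of each of 22 lists. MES1, PFK1, PFK2, BPL1, OLE1, LOT5, PRS1 and the neighbours of FAS2 were named outside this rule. Members, lists and tests were chosen with earlier results of these data known. Alternatives changed the scaling, pseudocount, filter, libraries fitted, block, weights and comparison strains. Libraries of the MPT deletion strains and of mixed FAS1-GFP/FAS2-TAP cultures were left out of the main fit.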

Additional observations from a re-analysis of the deposited data

Results flagged for a closer look

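The IP minus total difference of FAS2 in FAS1-GFP differed from its mean in the 5 strains of other complexes by 5.96 log2 (adjusted p of 7.0e-10 in limma-trend), and that of GUS1 by -1.84 (adjusted p of 0.0069 in limma-trend), each by the contrast between strains itself. FAS2 was higher in both FAS1-GFP IPs than in both totals and had a highest value of 0.52 among the 5 strains. GUS1 was lower in both IPs than in both totals, at -0.49, and was at 1.34 on average in the 5 strains, 3 of which carry the tag in the complex of GUS1.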

How the results depend on the processing

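FAS2 was called under every alternative run, at 5.09 to 6.58 log2 for IP minus total and 5.12 to 6.41 for the excess; with the 4 FAS1-GFP libraries alone its adjusted p was 0.0057 in limma. The number of features called for IP minus total was 2380 (11 higher, 2369 lower) with the RPM as deposited, where FAS1 was at -0.21 (excess -0.038), ACC1 at -0.39, FAA3 at -0.48, ANT1 at -0.92 and CPA1 at -0.48, 2 with a pseudocount of 5, 2 without the filter, 26 with the FAS1-GFP libraries alone and 304 with a weight for each library. With the replicate block it was 612 (358 higher, 254 lower), and 532 in the FAS1-GFP libraries alone; the numbers do not establish pairs, since only 2 exist, the deviations of same-numbered libraries correlated at 0.248, and IP 2 and total 2 differ in mating-type pattern. Leaving out libraries gave 1 to 53 called features (53 without total 1, 2 without IP 1, 16 from IP 2 against total 2 alone). The excess called 4 with equal totals over all nuclear features and 4 with the replicate block. Without 1 or both libraries of a replicate it called 1 to 33 (33 without total 1, 17 from the second pair alone, 1 otherwise). Of these fits with libraries left out, only the one without total 1 called GUS1. With PFK1-GFP and PFK2-GFP as the comparison the excess called 1, and ARC1 was at 0.056. ANT1 was at -0.052 with equal totals. Without single libraries or a pair, ANT1 ranged from -0.13 to 0.29, INO1 from -3.10 to 1.08 (0.35 in the first pair), GPH1 from -2.79 to 0.028 and HSP12 from -4.66 to 1.34. The cause of these changes was not tested. With a lone library in a group, its spread was taken from the other groups. The comparisons by pair and with the phosphofructokinase strains alone were chosen after seeing the data. The counts of features that differ between the totals stayed within 1.5 times of 44 and 20 under each scaling and pseudocount run. Implied depth was lowest in IP 2, at 1.57 M reads, which limits low genes.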
